A study of Mus musculus with 4 samples.

Results

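The genes of the skeletal muscle contractile apparatus were followed in 4 bulk RNA-seq libraries of J558 tumors. The set held 38 genes of 24421 in the count tables, all matched by symbol, and covered fast and slow myosins and troponins, actin and tropomyosins, proteins of the Z disc and M line, calcium-handling proteins, and muscle enzymes with myoglobin. J558 is a mouse plasma cell myeloma line, labelled as B lymphocyte. It was grown under the skin of the right flank of female BALB/c mice. Vehicle-1 and Vehicle-2 came from tumors of mice given 0.5% methylcellulose by mouth, and TAK-931-1 and TAK-931-2 from tumors of mice given the CDC7 inhibitor TAK-931 in daily doses of 60 mg/kg, all for 6 days, with n = 2 per group. CDC7 is a kinase that starts DNA replication. The mice used were listed as BALB/cAJcl of 4 weeks of age, with no age given per sample. Each library was made from RNA of a whole tumor sample, so it could hold RNA of any tissue beside or inside the tumor as well as of the J558 cells. The labels do not say how the tumors were freed from the flank, nor that each library was a separate mouse. The study's supplement plots tumor volumes of individual mice and names the Vehicle-1 and TAK-931-1 allografts as representative samples.

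The genes were chosen by how they stood in this same contrast, since their values in the TAK-931 and vehicle libraries were known when the set was drawn up. Differences between the groups in these genes are therefore given as descriptions, without a test. The comparison addressed what 6 days of TAK-931 did to the make-up of transcripts in the tumor.

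Skeletal muscle contracts when thick filaments of myosin pull on thin filaments of actin inside the sarcomere. The troponin and tropomyosin of the thin filament let this happen when calcium is released from the sarcoplasmic reticulum, and the Z disc and M line hold the filaments in register. Fibres differ in the forms of these proteins they make. In the mouse, Myh4, Myh1 and Myh2 encode the fast IIb, IIx and IIa myosin heavy chains, Myh7 the slow chain, and Myh8 and Myh3 the neonatal and embryonic chains. A plasma cell has no sarcomere.

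The upstream sequences of 5 genes are shown because the values below turn on them: Acta1, the skeletal actin, and Ckm, the muscle creatine kinase, for the muscle programme in general, and the adult fast myosin genes for their shares in each library. RefSeq gives a promoter for 31 of the 38 genes. Actn3, Myom2, Neb, Tcap, Tnni2, Tnnt3 and Trdn were not matched. Each run holds the 250 bases before the annotated start, 5′ to 3′ on the gene's strand, on assembly GRCm38.p6, the assembly that mm10 names. Acta1 lies on the minus strand at chr8:123894776-123895025. The others lie on the plus strand, Ckm at chr7:19410844-19411093, Myh4 at chr11:67237562-67237811, Myh1 at chr11:67199852-67200101 and Myh2 at chr11:67170777-67171026. Capitals mark matches on either strand to the E-box CAGCTG, the letters TATAAA, the CArG box and the MEF2 site, and the longest run that the 3 myosin promoters share.
Acta1: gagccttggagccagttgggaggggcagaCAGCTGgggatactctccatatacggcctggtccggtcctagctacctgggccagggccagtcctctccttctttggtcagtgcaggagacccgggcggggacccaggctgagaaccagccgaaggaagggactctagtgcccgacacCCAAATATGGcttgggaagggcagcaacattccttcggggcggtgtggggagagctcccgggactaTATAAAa
Ckm: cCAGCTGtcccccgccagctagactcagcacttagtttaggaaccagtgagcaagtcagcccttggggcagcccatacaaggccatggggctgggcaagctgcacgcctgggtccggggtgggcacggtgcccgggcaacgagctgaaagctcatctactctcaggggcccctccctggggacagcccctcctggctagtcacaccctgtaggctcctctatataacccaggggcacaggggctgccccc
Myh4: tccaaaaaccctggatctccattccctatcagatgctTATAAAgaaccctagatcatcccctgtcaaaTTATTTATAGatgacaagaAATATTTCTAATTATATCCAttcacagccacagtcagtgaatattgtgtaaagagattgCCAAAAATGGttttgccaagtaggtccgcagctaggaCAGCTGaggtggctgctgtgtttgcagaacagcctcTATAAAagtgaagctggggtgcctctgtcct
Myh1: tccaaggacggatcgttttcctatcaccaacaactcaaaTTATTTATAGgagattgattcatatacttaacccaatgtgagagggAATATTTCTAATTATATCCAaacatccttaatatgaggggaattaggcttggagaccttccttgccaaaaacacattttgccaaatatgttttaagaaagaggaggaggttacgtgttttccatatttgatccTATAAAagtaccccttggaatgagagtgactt
Myh2: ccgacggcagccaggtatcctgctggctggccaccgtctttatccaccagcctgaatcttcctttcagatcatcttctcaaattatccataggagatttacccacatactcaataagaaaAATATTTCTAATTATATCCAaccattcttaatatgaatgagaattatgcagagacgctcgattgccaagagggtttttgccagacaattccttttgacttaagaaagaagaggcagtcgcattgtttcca

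The E-box CAGCTG, a sequence that MyoD-family factors can bind, was found upstream of 14 of the 31 genes with a promoter, against 14.7% of all 27025 symbols in the RefSeq promoter table. The CArG box, read by serum response factor, was found for 5 of 31, against 1.62% of all symbols: Acta1, Ldb3, Myh4, Myl3 and Myom1. The MEF2 site was found for 5 of 31, against 3.42%: Myh1, Myh4, Myh8, Pvalb and Ttn. The letters TATAAA were found for 7 of 31, against 14.3%. In Myh4 and Myh1, 1 of the matches to TATAAA lies on the opposite strand inside the MEF2 site, so these 2 motifs are not separate there. The longest run shared by Myh1, Myh2 and Myh4 was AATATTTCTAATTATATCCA, of 20 bases, which begins 165, 130 and 163 bases before their respective starts. It was present in these 3 windows and in no other of the 32851 windows of the table. Each match is a description of letters and not evidence of binding in these tumors.

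The libraries held 16487902 to 19589339 gene counts each. The counts were mostly even numbers, with odd values making up 17.9% to 23.9% of counts between 1 and 20, as when both mates of a read pair are counted, so counts of 2 may be a single fragment. Levels are given as CPM (counts scaled to library size by TMM), and, for comparing genes, as CPM per kb of exon. Where 4 values follow each other, their order is Vehicle-1, Vehicle-2, TAK-931-1, TAK-931-2. A count of 0 allows a level of up to 0.178, 0.180, 0.158 and 0.175 CPM (3 counts, counting error only). The 2 vehicle libraries were alike over all genes, with a correlation of log2 CPM of 0.977, and the 2 TAK-931 libraries less so, at 0.865. Plasma cell markers were abundant in each library, Jchain, the joining chain of secreted antibody, at 3136 to 8124 CPM.

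The sarcomere and fibre-type genes were high in TAK-931-1 and low in TAK-931-2, with the vehicle libraries between. Their levels summed to 481.0, 513.6, 2254 and 327.3 CPM. TAK-931-1 stood 4.53-fold above the vehicle mean, and TAK-931-2 at 0.658 of it. The group means were 497.3 ± 23.1 CPM for vehicle and 1290 ± 1362 CPM for TAK-931 (SD, n = 2 each). The spread within the TAK-931 group was thus larger than the difference between the groups. Eno3 and Tpm1, at 146.0 and 79.0 CPM, made up most of the sum in TAK-931-2, so the sum does not show the typical gene. Over the 33 genes tested, the median difference from the vehicle mean was 3.004 log2 CPM in TAK-931-1 and -1.85 in TAK-931-2. As a share of all gene counts the set took 0.0477% (95% Wilson interval 0.0467% to 0.0487%) in the first vehicle library and 0.0513% (0.0502% to 0.0524%) in the second. The share was 0.218% (0.216% to 0.221%) for TAK-931-1 and 0.0340% (0.0332% to 0.0349%) for TAK-931-2. In bulk tumor RNA, fewer muscle cells and less RNA per cell cannot be told apart.

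**Figure D1:**
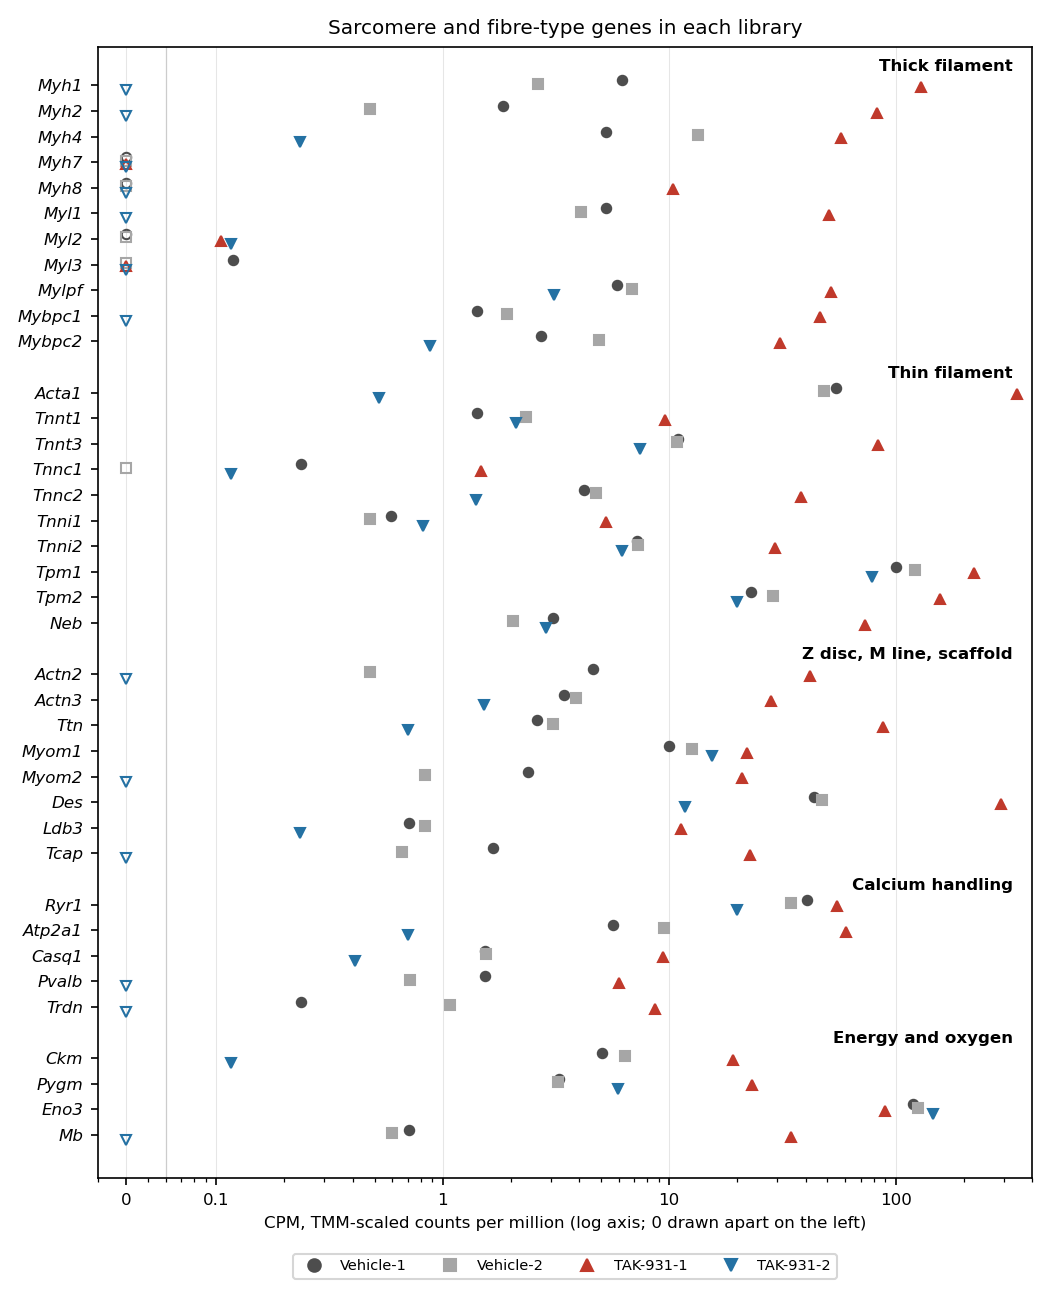
CPM on a log axis for each of the 38 genes, grouped by role, with 1 point per library and open points on the left for a count of 0. The points of TAK-931-1 lie above both vehicle points for 35 genes, and those of TAK-931-2 below both vehicle points for 27. Of all 24421 genes, 8319 and 6601 lay so, respectively.

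By gene, TAK-931-1 was above both vehicle libraries for 35 of 38 genes, the exceptions being Myh7, Myl3 and Eno3. TAK-931-2 was below both for 27 of 38. Of all 24421 genes, 8319 were above both in TAK-931-1 and 6601 below both in TAK-931-2, and 6800 had no count in any library. The number of the 38 genes with no count was 3, 5, 2 and 13. A filter on low counts kept 33 of 38 genes, and Myh7, Myh8, Myl2, Myl3 and Tnnc1 fell below it. Of the 33, 32 had their highest level in TAK-931-1, where 41.2% of the 13669 genes tested did, and 27 had their lowest in TAK-931-2, where 17.6% did. The same 27 genes did both, against 9.36% of all genes tested. The order of levels per length among the 38 genes was kept between the vehicle libraries, with a Spearman correlation of 0.937 across genes, and less so between the TAK-931 libraries, at 0.441. These coefficients describe genes of 4 libraries, which are not independent points.

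Only 3 of 33 genes were higher in both TAK-931 libraries than in both vehicle libraries, against 30% of all genes tested, and 0 were lower in both, against 32.7%. The 3 were Tnni1, Myom1 and Pygm. The fitted log2 fold change between the groups was over 1.5 for 26 of 33 genes, against 16.8% of all genes, and its median was 2.07 against 0.02 over all genes. With limma-voom, which averages log values, 4 of 33 genes exceeded the fold, and the sign changed for 12 of 33. The median was 0.43 there, against -0.02 over all genes. The share of all genes over the fold was taken in the first fit alone. That fit averages 2 TAK-931 libraries that lay on opposite sides of the vehicle libraries. With TAK-931-1 left out, the median was -1.96, against -0.02 over all genes. With TAK-931-2 left out, it was 2.99, against 0.01.

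No gene of the 13669 passed an adjusted p under 0.05 in edgeR's quasi-likelihood test, a share of 0%. At an unadjusted p under 0.05, 11.6% of genes were higher and 6.55% lower, and 1 gene of the set, Pygm, was among them. DESeq2 called 1411 genes and limma-voom 0 at an adjusted p under 0.05. DESeq2 called 9.78% of the genes it gave an adjusted p as higher, and Pygm, Neb and Ttn of the set were among these. Since the set was drawn from this contrast, nothing is read from these calls. With 2 libraries against 2, an exact permutation test cannot go below p = 0.3333.

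**Figure D2:**
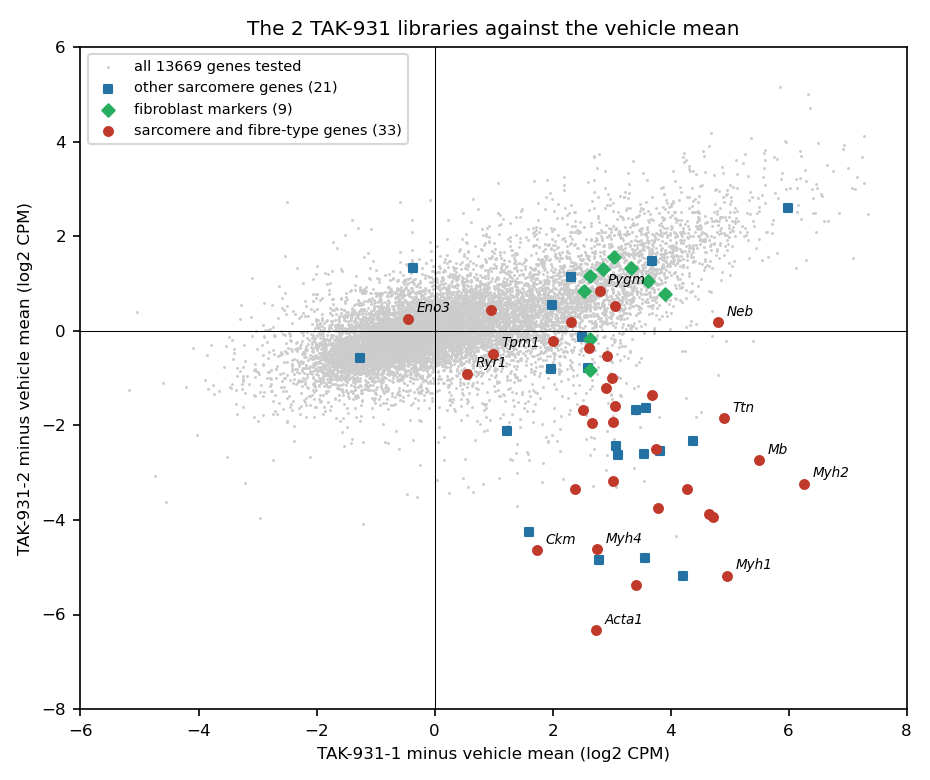
Difference from the vehicle mean in log2 CPM (prior count 2) for TAK-931-1 on the x axis and TAK-931-2 on the y axis, 1 point per gene tested, grey for all 13669 genes. The sarcomere and fibre-type genes, in red, lie mostly at the lower right, with medians of 3.004 for TAK-931-1 and -1.85 for TAK-931-2, and the fibroblast markers, in green, mostly at the upper right, with medians of 2.85 and 1.06.

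Among the thick filament genes, Myh1, Myh2 and Myh4 carried most of the myosin heavy chain signal in Vehicle-1, Vehicle-2 and TAK-931-1. These genes lie in a cluster on chromosome 11 with Myh8. Myh1 (chr11:67200114-67224575, mm10) was at 6.17 and 2.64 CPM with vehicle, 128.9 in TAK-931-1 and 0 in TAK-931-2. Myh2 (chr11:67171027-67197517) had levels of 1.84, 0.480, 82.6 and 0 CPM. Myh4 (chr11:67237812-67260447) had levels of 5.28, 13.4, 57.5 and 0.233 CPM. For all 3 genes TAK-931-1 was the highest library and TAK-931-2 the lowest, so the groups overlapped. TAK-931-1 stood 29.3-fold, 71.3-fold and 6.15-fold above the vehicle mean for Myh1, Myh2 and Myh4. In TAK-931-2, Myh1 was at least 25.2-fold and Myh2 at least 6.62-fold below the vehicle mean. The fitted log2 fold changes were 3.87 (SE 2.598), 5.15 (SE 2.81) and 1.63 (SE 2.01), with standard errors that span much of each estimate. These genes are close copies of each other, and how reads that match several of them were shared out beyond the use of unique reads is not given, so the split among them is uncertain.

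The neonatal chain Myh8 (chr11:67277124-67308633) had 198 counts in TAK-931-1 and 0 in the other 3 libraries. Its level of 10.4 CPM in TAK-931-1 was at least 58.3-fold above the vehicle libraries, taking 3 counts per vehicle library as the floor. The slow chain Myh7 (chr14:54970688-54994549) had 0 counts in all 4 libraries. Of the slow light chains, Myl2 had 2 counts in each TAK-931 library and none in the vehicle libraries, and Myl3 had 2 counts in Vehicle-1 alone. These slow-fibre myosin genes were thus at or under the limit that 3 counts set, also in the library with the most muscle transcripts.

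The fast light chains followed the heavy chains. Myl1, the essential light chain of fast fibres, was at 5.28, 4.08, 50.8 and 0 CPM. Mylpf, the fast regulatory light chain, was at 5.87, 6.83, 51.6 and 3.09 CPM. Mybpc1 and Mybpc2 encode the slow-type and fast-type myosin-binding protein C. Mybpc1 was at 1.42, 1.92, 46.4 and 0 CPM, and Mybpc2 at 2.73, 4.92, 30.8 and 0.875 CPM. TAK-931-1 stood 27.8-fold above the vehicle mean for Mybpc1 and 8.05-fold for Mybpc2.

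The make-up of the myosin heavy chains differed between libraries. Shares were taken of the counts per kb of 6 genes, the 5 above and the embryonic chain Myh3, which belongs to a separate list of sarcomere genes. In the first 3 libraries Myh4 took 31.5%, 68.6% and 20.5%, Myh1 36.9%, 13.5% and 46.1%, and Myh2 10.9%, 2.43% and 29.3%. The 6 genes had 282, 326 and 5327 counts there and 40 in TAK-931-2, where Myh3 held 36 of the 40. Myh3 itself had 58, 50, 24 and 36 counts in the 4 libraries and did not share the pattern of the adult chains. The share of Myh4 was lower in TAK-931-1 than in either vehicle library, and the share of Myh2 was higher. Of the counts of the 3 adult fast genes alone, Myh2 took 13.8% (95% Wilson interval 9.92% to 19.0%) and 2.90% (1.48% to 5.61%) in the vehicle libraries, against 30.7% (29.5% to 32.0%) in TAK-931-1. These intervals cover counting error only, and paired mates make them too narrow. The vehicle libraries were themselves far apart in Myh1 and Myh4.

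**Figure D3:**
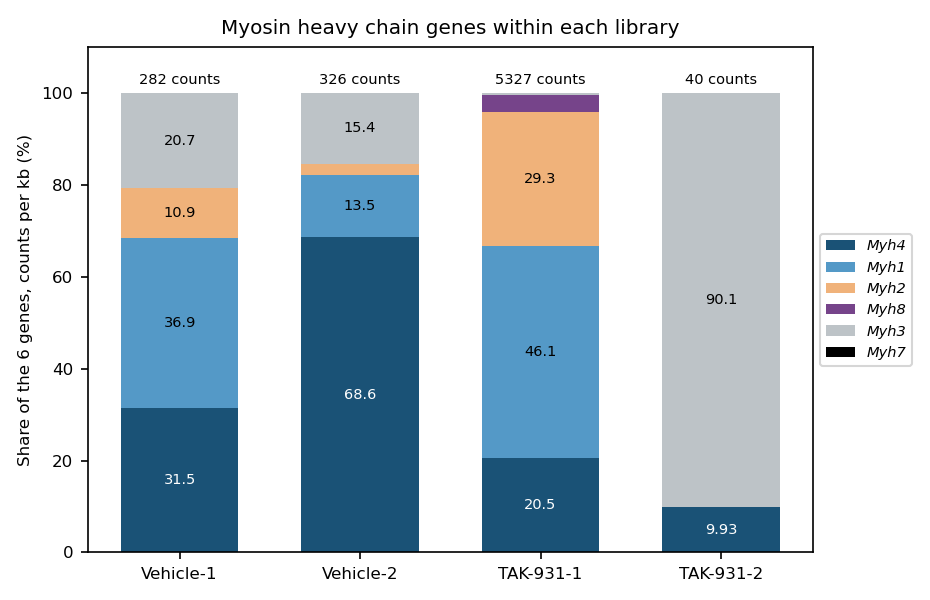
Share of 6 myosin heavy chain genes in their summed counts per kb (%), 1 stacked bar per library with the number of counts above it. Myh4 was the largest part in Vehicle-2 (68.6%), Myh1 in Vehicle-1 and TAK-931-1 (36.9% and 46.1%), and Myh3 in TAK-931-2 (90.1% of 40 counts).

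Among the thin filament genes, Acta1 (chr8:123891758-123894775) was the most abundant per length in TAK-931-1. It was at 34.7, 30.8, 219.0 and 0.334 CPM per kb. Its counts were 918, 807, 6531 and 9, so the TAK-931 libraries differed 655-fold in CPM while the vehicle libraries differed 1.13-fold. The fast troponins were present in every library. Tnnt3, the fast troponin T that ties the complex to tropomyosin, was at 11.0, 10.9, 83.9 and 7.47 CPM. Tnnc2, the fast calcium-binding subunit, was at 4.21, 4.74, 38.04 and 1.40 CPM. Tnni2, the fast inhibitory subunit, was at 7.18, 7.31, 29.3 and 6.19 CPM. In each of the 3, TAK-931-1 was the highest library and TAK-931-2 the lowest, with a gap to the vehicle libraries that was wide for Tnnc2 and narrow for Tnni2.

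The slow troponins were low. Tnnt1 was at 1.42, 2.34, 9.54 and 2.10 CPM, with TAK-931-2 between the vehicle libraries. Tnni1 was at 0.593, 0.480, 5.27 and 0.817 CPM, and was 1 of the 3 genes with both TAK-931 libraries above both vehicle libraries, although the step in TAK-931-2 was from 10 and 8 counts to 14. Tnnc1, shared by slow and cardiac muscle, had 4, 0, 28 and 2 counts.

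The tropomyosins Tpm1 and Tpm2 lie along actin in muscle and in other cells. Tpm1 was at 100.2, 122.3, 220.8 and 79.0 CPM and Tpm2 at 22.9, 28.7, 157.7 and 19.8 CPM. Both had the order of the muscle genes over a smaller range, 1.99-fold and 6.11-fold above the vehicle mean in TAK-931-1. Neb, the giant protein that runs along the thin filament, was at 3.08, 2.04, 73.4 and 2.86 CPM. It stood 28.7-fold above the vehicle mean in TAK-931-1, while its level in TAK-931-2 lay between the vehicle libraries.

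Fast and slow forms were set against each other within each library. The log2 ratio of the summed fast over the summed slow forms, per kb, over 7 pairs (troponins T, C and I, regulatory and essential light chains, myosin-binding protein C, and the adult fast heavy chains over Myh7) was 3.94, 3.80, 3.61 and 2.84. The group means were 3.87 ± 0.10 and 3.22 ± 0.55 (SD, n = 2 each), a difference of -0.65. Fast forms thus exceeded slow forms in all 4 libraries, and both TAK-931 libraries lay below both vehicle libraries. In TAK-931-2 the ratio rests mainly on Tnnt3, Tnni2, Mylpf and Tnnt1, with 128, 106, 53 and 36 counts. Myl1 and Mybpc1 had 0 counts there, the adult fast heavy chains 4 and Acta1 9, so the value says little about fibre type. The place of TAK-931-1 rests on Mybpc1. Without Mybpc2 and Mybpc1 the ratios were 4.12, 3.99, 4.35 and 2.82, and TAK-931-1 was then the highest. Mybpc2 stood at 2.11 and 2.82 times Mybpc1 per kb in the vehicle libraries and at 0.728 times in TAK-931-1. Tnnt3 stood at 7.08 and 4.26 times Tnnt1 in the vehicle libraries, 8.09 times in TAK-931-1 and 3.27 times in TAK-931-2. Tnni2 stood at 20.2 and 25.5 times Tnni1, 9.29 times in TAK-931-1 and 12.7 times in TAK-931-2. The pairs did not move one way.

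Over the 8 genes of the Z disc, M line and scaffold, TAK-931-1 stood at a median of 13.8-fold above the vehicle mean. Ttn, the giant spring between Z disc and M line, was at 2.61, 3.06, 87.7 and 0.700 CPM. Des, the intermediate filament that links neighbouring Z discs, was at 43.5, 47.4, 290.4 and 11.7 CPM. For both, the vehicle libraries lay close together, with TAK-931-1 far above and TAK-931-2 far below. Actn2, an alpha-actinin of the Z disc, was at 4.63, 0.480, 42.0 and 0 CPM, and its vehicle libraries differed 9.65-fold. Actn3, the alpha-actinin of fast fibres, was at 3.44, 3.90, 28.1 and 1.52 CPM, with vehicle libraries that were close. Ldb3, which binds alpha-actinin, had 12, 14, 214 and 4 counts, and Tcap, which caps titin at the Z disc, had 28, 11, 432 and 0. The M line genes parted. Myom2 was at 2.37, 0.839, 21.1 and 0 CPM, whereas Myom1 was at 10.0, 12.7, 22.0 and 15.4 CPM, with both TAK-931 libraries above both vehicle libraries and TAK-931-1 at 1.94 times the vehicle mean.

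Among the calcium-handling genes, Atp2a1, the calcium pump of fast fibres, was at 5.63, 9.47, 60.4 and 0.700 CPM. Its exons overlap those of Rabep2 on the other strand by 48 bases, and Rabep2 had 557 to 756 counts over the 4 libraries. Casq1, which stores calcium in the reticulum, was at 1.54, 1.56, 9.38 and 0.408 CPM. Pvalb, a calcium buffer of fast fibres, had 26, 12, 114 and 0 counts, and Trdn, which anchors calsequestrin at the release channel, had 4, 18, 164 and 0. All 4 were highest in TAK-931-1 and lowest in TAK-931-2. Ryr1, the release channel itself, was at 40.5, 34.4, 54.8 and 19.9 CPM. It kept this order within 1.46-fold above and 0.531 of the vehicle mean, and its fitted log2 fold change was -0.00 (SE 0.54).

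The energy and oxygen genes did not share 1 pattern. Mb, the oxygen-binding myoglobin (chr15:77015487-77050668), was at 0.712, 0.599, 34.7 and 0 CPM. TAK-931-1 stood 52.9-fold above the vehicle mean. The exons of Mb overlap those of Apol6 on the other strand by 62 bases, and Apol6 had 22, 8, 274 and 82 counts, so part of the reads could be shared if strand was not used in counting, which is not stated. Ckm was at 5.04, 6.35, 19.2 and 0.117 CPM. Its exons overlap A930016O22Rik on the other strand by 451 bases, which had at most 19 counts in any library. Pygm, the muscle glycogen phosphorylase, was at 3.26, 3.24, 23.3 and 5.95 CPM, above the vehicle libraries in both TAK-931 libraries. Eno3, the muscle enolase, was at 119.5, 125.0, 89.4 and 146.0 CPM, the reverse order, lowest in TAK-931-1 and highest in TAK-931-2. Per length, Eno3 was the most abundant of the 38 genes in both vehicle libraries and in TAK-931-2, at 74.5, 78.0 and 91.1 CPM per kb.

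The height of TAK-931-1 over the vehicle mean differed widely among the 34 genes with more than 3 counts in TAK-931-1 and in the vehicle libraries together, from 0.732 for Eno3 to 71.3 for Myh2, with a median of 8.02. Myh2, Mb, Ttn, Myh1, Neb and Mybpc1 stood at 27.8-fold or more. Acta1, Des, Myh4, Casq1, Pvalb and Ckm stood at 3.37-fold to 6.69-fold. Of these, Tnnc1 alone had a vehicle library without counts, and its 12.4-fold rests on 4 vehicle counts. The 13 genes of fast fibres had a median of 7.99-fold and the 4 such genes of slow fibres, Tnnc1 among them, one of 11.1-fold, over overlapping ranges of 4.04 to 71.3 and 5.07 to 27.8. The vehicle libraries also differed in some of these genes. Of 33 genes with more than 3 counts in both, 21 agreed within 1.5-fold, and 8 differed by more than 2-fold: Myh1, Myh2, Myh4, Actn2, Myom2, Tcap, Pvalb and Trdn. Of these, Myh4 and Trdn were higher in Vehicle-2 and the other 6 in Vehicle-1.

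The same order of libraries was found in part of the other muscle genes. Lists of other muscle genes, written by function but with earlier results of these data known, held 107 genes, of which 72 passed the filter. Their fitted log2 fold change was over 1.5 for 32 of 72, against 16.8% of all genes tested, with a median of 1.24, and 17 of 72 were higher in both TAK-931 libraries, against 30% of all genes. With TAK-931-1 left out, the median was -0.40, against -0.02 over all genes. Of the muscle atrophy genes, 3 of 5 tested were both highest in TAK-931-1 and lowest in TAK-931-2, against 9.36% of all genes tested. Of the other sarcomere genes 13 of 21 tested were, and this list summed to 61.5, 43.3, 464.2 and 28.5 CPM. The 4 most abundant of them were Cryab, a chaperone of desmin, at 8.30, 5.16, 71.3 and 1.98 CPM, Xirp2 at 6.29, 2.64, 77.8 and 0 CPM, the filamin Flnc at 8.18, 8.03, 49.5 and 4.67 CPM, and Hspb7 at 4.39, 2.64, 41.2 and 0.467 CPM.

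The regulators of the muscle lineage divided. Myog, which drives terminal differentiation, had 4, 2, 66 and 2 counts, Myf6, the factor of mature fibres, 2, 6, 42 and 0, and Myod1 4, 0, 22 and 0. Pax7, the satellite cell factor, had 4 counts in TAK-931-1 and none elsewhere, and Pax3 and Myf5 had 0 in all libraries. The fusion genes Mymk and Mymx had at most 10 and 2 counts in any library. All of these were below the filter. Factors that other cells also make were far higher. Mef2a, at 75.1, 75.0, 112.6 and 65.9 CPM, had the order of the set over a narrow range, while Mef2c and Mef2d were lowest in TAK-931-1 and highest in TAK-931-2, Mef2c at 192.1, 187.7, 89.0 and 238.2 CPM and Mef2d at 82.3, 89.6, 78.3 and 114.8 CPM. Six4 stayed between 1.90 and 5.02 CPM. Of the genes of muscle atrophy, the ubiquitin ligases Trim63 and Fbxo32 were at 0.593, 1.44, 3.58 and 0 CPM and at 7.95, 8.39, 15.2 and 3.27 CPM. Trim54 had 16, 8, 52 and 0 counts, Trim55 0, 2, 8 and 0, Mss51 26, 28, 86 and 52, the muscle growth inhibitor Mstn 0, 0, 6 and 0, and its antagonist Fst 46, 62, 68 and 10.

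The remaining muscle lists mixed genes that followed the set with genes that did not. For excitation-contraction coupling, 5 of 15 tested genes were highest in TAK-931-1 and lowest in TAK-931-2. Over all genes tested the share was 9.36%, which stands beside each such count in this paragraph. Asph, the calcium channel subunit gene Cacna1s and Srl lay between 57.2 and 66.6, 16.8 and 24.0, and 8.75 and 13.0 CPM over the 4 libraries. For the costamere and membrane, 4 of 8 did, and Dysf, which reseals the membrane, was at 17.1, 14.8, 57.6 and 17.7 CPM, Sgcb at 11.2, 11.0, 23.8 and 10.1, and Cmya5 at 3.44, 3.96, 19.1 and 6.77. For the neuromuscular junction 1 of 5 did, and Chrnb1 was at 9.13, 8.39, 6.85 and 13.9 CPM, with Ache, Rapsn and Chrnd at 2.63 CPM or less throughout. For muscle metabolism 3 of 13 did. The 4 most abundant, Adssl1, Pfkm, Cox6a2 and Pgam2, were at 49.1, 53.6, 17.3 and 25.9 CPM in TAK-931-1, each below both vehicle libraries.

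**Figure D4:**
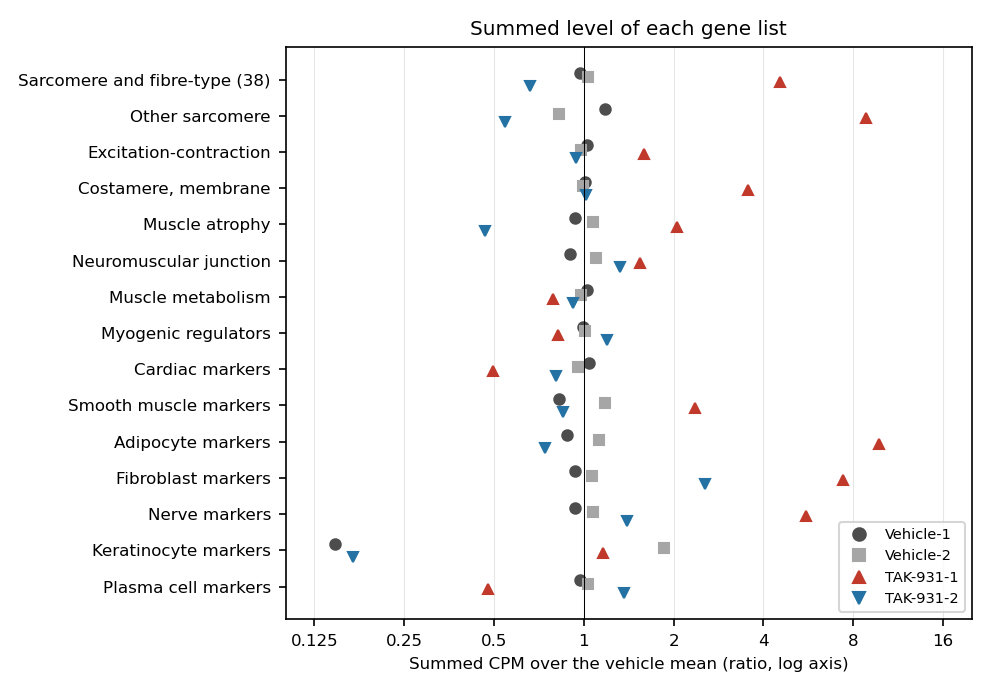
Summed CPM of each gene list over its vehicle mean (ratio, log axis), 1 point per library. The sarcomere and fibre-type genes stood at 4.53 in TAK-931-1 and 0.658 in TAK-931-2, the adipocyte and fibroblast markers were also highest in TAK-931-1, and the plasma cell markers were lowest there.

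Markers of fibroblasts and adipocytes were also high in TAK-931-1, and those of plasma cells low. All 9 fibroblast markers were highest there, against 41.2% of all genes tested, and their levels summed to 1861, 2115, 14690 and 5060 CPM. Col1a1 was at 700.8, 740.1, 5945 and 2107 CPM, and Col1a2, Col3a1 and Dcn had the same order of libraries. In TAK-931-2, 7 of these 9 markers were above both vehicle libraries too, where 30% of all genes were higher in both TAK-931 libraries. Of 10 adipocyte markers, 9 were highest in TAK-931-1, where 7366 of all 24421 genes were. Of the 5 that passed the filter 4 were, against 41.2% of all genes tested. The list summed to 67.7, 86.8, 753.2 and 57.4 CPM. Lpl was at 18.7, 13.8, 420.9 and 21.6 CPM, Fabp4 at 40.3, 61.4, 254.6 and 25.7, Pparg at 3.08, 3.84, 41.9 and 6.88, and Cfd at 0.830, 1.26, 25.8 and 0.233. The adipocyte hormone genes were low, Adipoq with 4, 4, 50 and 2 counts and Lep with 4 counts in TAK-931-1 alone. The exception of the list, Cidec, had 76, 97, 68 and 46 counts. All 9 plasma cell markers were below both vehicle libraries in TAK-931-1, where 6928 of all 24421 genes were. Their sums were 9887, 10470, 4858 and 13840 CPM. Trap1a was at 1127, 1095, 355.5 and 1235 CPM, Xbp1 at 1059, 1059, 377.0 and 972.3, and Irf4 at 737.2, 761.8, 298.1 and 1671. The part of these marker differences in the muscle values was not tested.

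Cardiac, smooth muscle, nerve and keratinocyte markers were read for the same reason. Of 10 cardiac markers, Myl7 had 0 counts in all libraries, Myh6 had 2 counts in TAK-931-2 alone, and Tnnt2 had 4, 0, 51 and 0. Myl4 made up most of the summed cardiac level, at 98.3, 88.3, 28.9 and 76.3 CPM, Ankrd1 was at 5.81, 5.51, 14.8 and 2.80, and Mybpc3 had at most 30 counts. The 9 smooth muscle markers, which include Des, summed to 239.7, 340.5, 685.6 and 247.3 CPM. Acta2 was at 85.2, 139.1, 161.5 and 89.97 CPM, Tagln at 47.1, 77.7, 80.9 and 63.2 and Smtn at 38.1, 39.0, 53.3 and 40.1. The 8 nerve markers summed to 13.4, 15.4, 79.8 and 20.1 CPM, with Pmp22 at 44.5 and Mbp at 31.0 CPM in TAK-931-1, Prx at most 2.52 CPM and Nefm at 0 in all libraries. Of the keratinocyte markers, 10 of 11 were in the tables. Krt14 had 0, 320, 72 and 0 counts and Krt5 0, 174, 164 and 0, so these keratins were detected in Vehicle-2 and TAK-931-1 and not in the others at this depth. Krt10 and Sbsn had 36 to 75 and 17 to 114 counts and Ivl 0 in all libraries. Krt1 had 0, 44, 0 and 0 counts and Lor 2, 20, 0 and 0. The keratinocyte list summed to 3.26, 41.2, 25.7 and 3.73 CPM and was highest in Vehicle-2. The summed muscle levels were 481.0, 513.6, 2254 and 327.3 CPM and were highest in TAK-931-1, so the orders of libraries differed. The part of skin transcripts in the muscle values was not tested.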

How the data were processed

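Total RNA of 4 allograft tumor samples (RNeasy Mini kit) was sequenced by a service laboratory. Per the submitters' processing notes, reads were aligned to mm10 with STAR 2.6.1c and counted with featureCounts. The authors deposited whole-number counts per gene for each library, with the gene's exon length; the column names say that unique reads were counted, and the use of strand is not given in the sources used here. Groups and replicate numbers came from the sample titles. The study compared Vehicle-1 and TAK-931-1 by gene set enrichment, and no test per gene is stated for these libraries, so a quasi-likelihood test was used. The log2 fold of 1.5 is the one the study applied to its cultured cells.

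Genes were kept by filterByExpr with a minimum count of 10 (13669 of 24421), scaled by TMM and fitted with treatment alone in edgeR 4.0.16 (robust glmQLFit, two-sided glmQLFTest, Benjamini-Hochberg over all genes) under R 4.3.3. DESeq2 1.42.0, limma-voom (limma 3.58.1), 2 other scalings, 2 other filters, a replicate block and the removal of each library were alternatives. The script was tested on simulated counts. Levels per length divide CPM by exon length in kb. Log2 CPM used a prior count of 2. Ratios between 2 libraries are given only where both have more than 3 counts, and ratios to the vehicle mean where the vehicle libraries together have more than 3, and a bound uses 3 counts per library. Genes named are the whole set and, of each other list, the 4 of highest mean CPM, every myogenic regulator and atrophy gene, and any gene at 0 in all libraries; single further markers were named after their values were seen, and a few genes under this rule are not reported here. Mymk and Mymx were matched through RefSeq synonyms. The set and the lists were chosen with earlier results of these data known. The replicates are labelled samples, and p-values measure only the spread between them, which may be technical.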

Additional observations from a re-analysis of the deposited data

How the results depend on the processing

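With 2 libraries per group and many genes under 100 counts, depth and replication both limit the low members. Among all genes, the count at an adjusted p under 0.05 was 0 in the fit as reported, 1411 with DESeq2, 144 with the replicate block and 0 to 8424 when a library was left out. Leaving out each library gave 0 to 31 genes of the set over the fold of 1.5, a median log2 fold change of -1.96 to 2.99 and a log2 ratio of summed CPM of -0.60 to 2.18, the low ends without TAK-931-1. The same removals, chosen after seeing the data, put 4 to 32 of 33 genes higher in every TAK-931 library left, the 32 without TAK-931-2, where 46.1% of all genes were (34.2% to 42.3% in the other removals).

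Over the fold were 12 of 17 genes when 10 counts were asked of every library, 6 of 33 with the replicate block (median 0.89, sign changed for 5) and 4 of 33 with limma-voom (0.43, 12). The median over all genes in these respective fits was 0.03, -0.01 and -0.02. No share of all genes over the fold was taken in these fits or in those of the other muscle genes below. Same-numbered libraries did not deviate together (r = 0.0041), so the block only pairs numbers. Of the other muscle genes, 11 of 37 were over the fold with 10 counts in every library, 55 of 105 with no filter, 12 of 72 with the replicate block, 12 of 72 with limma-voom and 4 of 72 to 63 of 94 without a library. Their median ran from -0.40 to 2.26, and those higher in every TAK-931 library numbered 10 of 37 with 10 counts in every library (28.2% of all genes) and 21 to 56 of 72 without a library, the 56 without TAK-931-2. Other scalings moved none of the counts of the set named here. The fast to slow difference stayed negative, from -1.03 to -0.26 without a library. The causes of these changes were not tested.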
